A study of Mus musculus with 32 samples.

Results

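The 10 genes described here are the developmental pluripotency associated genes Dppa2, Dppa3, Dppa4 and Dppa5a and 6 other genes that are switched on late, or kept on, in pluripotent mouse cells: Tdgf1, Utf1, L1td1, Pramel6, Pramel7 and Upp1. They were chosen by name, and each was found by its Ensembl identifier and GENCODE M21 symbol in all 5 expression tables, among 55401 genes listed in the tables of TPM, a measure of transcript abundance per length. The study followed chemical reprogramming, in which OG2X129 mouse embryonic fibroblasts are carried towards induced pluripotent stem cells (iPSC) by small molecules. It asked what CD3254 (CD in the labels), an agonist of the retinoid X receptor RXR, does in this process. There were 32 bulk RNA libraries in 16 groups of 2.

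All reprogramming cultures shared one medium with serum replacement, serum, bFGF, VPA, CHIR99021, 616452, Parnate, Forskolin, AM580, EPZ004777 and vitamin C. AM580 is an agonist of the retinoic acid receptor RARα, so the controls also received a retinoid. A first table held intermediates with CD or its solvent DMSO. Another held intermediates overexpressing Rxra, the gene of RXRα, and their controls (labelled CTR, genotype WT OE). A further one held cells with a hairpin against Exosc3, a subunit of the RNA exosome (shE3), and cells with a control hairpin (shCTR). Cells with CD or DMSO were also collected after 0, 4 and 8 h of actinomycin D, which blocks transcription. The last table held iPSC derived with CD, iPSC derived with DMSO (titled DMSP-iPSC, genotype DMSO addition), embryonic fibroblasts (MEF) and R1 embryonic stem cells from a mouse blastocyst. The labels carry WT shRNA and the reprogramming treatment for the MEF libraries too, and give neither the day of collection nor whether the 2 libraries of a group came from separate cultures or lines. The p-values therefore measure the spread between these libraries, which may be technical.

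Dppa2 and Dppa4 are neighbouring genes that encode SAP-domain chromatin proteins, which form a heterodimer and keep bivalent promoters and early embryonic genes open to activation. Dppa3 (Stella) is a maternal and germ cell factor that shields DNA from methylation changes, and Dppa5a encodes a small KH-domain protein of pluripotent cells. Tdgf1 (Cripto) is the cell surface co-receptor for Nodal. Utf1 is a chromatin factor of undifferentiated cells, L1td1 is an RNA-binding protein derived from a LINE-1 open reading frame, Pramel6 and Pramel7 are PRAME family proteins linked to low DNA methylation in naive cells, and Upp1 is uridine phosphorylase, an enzyme of pyrimidine salvage.

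RefSeq promoter windows (GRCm38.p6) were at hand for 6 of the 10 members. Those of Pramel6, Pramel7 and L1td1, the members that differed most between iPSC groups, are printed beside that of Tdgf1, which did not share their difference. Each runs 5′ to 3′ on the gene's strand over the 250 bases before the RefSeq start. They lie at chr2:87506315-87506564 (+ strand) for Pramel6, chr2:87492419-87492668 (− strand) for Pramel7, chr4:98726504-98726753 (+ strand) for L1td1 and chr9:110946159-110946408 (− strand) for Tdgf1. The Pramel7 window lies inside the GENCODE M21 gene (87489087 to 87497093) whose TPM are given here, not before the start of that gene. The L1td1 window ends just inside its GENCODE gene, which starts at 98726734. The capitals mark CpG dinucleotides, the sites of DNA methylation.
Pramel6: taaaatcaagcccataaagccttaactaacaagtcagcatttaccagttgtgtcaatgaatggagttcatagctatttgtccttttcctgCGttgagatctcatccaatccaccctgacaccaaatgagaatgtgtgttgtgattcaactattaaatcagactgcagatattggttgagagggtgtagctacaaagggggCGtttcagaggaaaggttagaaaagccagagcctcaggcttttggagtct
Pramel7: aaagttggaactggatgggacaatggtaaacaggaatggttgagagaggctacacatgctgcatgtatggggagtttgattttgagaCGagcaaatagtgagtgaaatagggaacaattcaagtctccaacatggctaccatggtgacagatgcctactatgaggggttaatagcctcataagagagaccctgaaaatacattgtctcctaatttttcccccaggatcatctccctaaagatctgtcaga
L1td1: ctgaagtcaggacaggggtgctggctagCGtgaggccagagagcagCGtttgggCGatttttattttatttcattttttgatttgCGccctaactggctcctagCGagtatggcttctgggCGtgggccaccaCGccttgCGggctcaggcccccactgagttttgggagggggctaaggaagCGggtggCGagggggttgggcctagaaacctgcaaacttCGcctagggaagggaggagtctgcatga
Tdgf1: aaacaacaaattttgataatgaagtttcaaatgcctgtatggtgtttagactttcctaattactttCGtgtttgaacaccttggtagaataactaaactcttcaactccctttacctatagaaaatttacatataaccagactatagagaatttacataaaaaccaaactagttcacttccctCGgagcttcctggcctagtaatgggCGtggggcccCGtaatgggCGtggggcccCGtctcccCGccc
The Pramel6 window held 2 CpG and the Pramel7 window 1, against 11 in L1td1, 7 in Tdgf1 and a median of 6 over 32851 mouse promoter windows of the same length. On both strands, the CCAAT box (letters CCAAT) occurred at 2 places in Pramel6, and the Sox core (ACAAT) at 3 places in Pramel7. These letters were also in 33.8% and 27.7% of all windows. Tdgf1 held 1 GC box (GGGCGG, in 32.7% of all windows), next to its start. No window of the 6 members held the octamer ATGCAAAT (in 1.6% of all windows) or the nuclear receptor half-site AGGTCA (in 14.0%). Methylation and binding were not measured in these libraries.

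In the GENCODE M21 annotation, Pramel6 and Pramel7 are neighbours on chromosome 2 that start in opposite directions, with 9471 bases between them. Dppa4 and Dppa2 lie 9670 bases apart on chromosome 16 on the same strand. Dppa3 lies between Gdf3 and Nanog on chromosome 6. No other annotated gene overlapped a member on either strand.

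All 10 members were high in DMSO iPSC and R1 relative to MEF, while in CD iPSC Pramel6 and Pramel7 averaged below 1 TPM. Of the 8 libraries of that table, both MEF libraries listed 9 members at 0, and Upp1 at 0.949 and 0 TPM. All groups of that table were fitted together, so each SE below pools the spread within every group, MEF included. For those 9 members the MEF pair adds no spread, while for Upp1 it does. In R1 the order by mean level was Dppa5a at 2707 ± 1.93 TPM (SD, n = 2 here and below), Tdgf1 at 1217 ± 78.0, Upp1 at 668 ± 64.3, Utf1 at 354 ± 22.7, L1td1 at 320.5 ± 9.04, Dppa2 at 141 ± 13.0, Dppa4 at 138.3 ± 0.600, Pramel6 at 28.7 ± 7.83, Pramel7 at 11.99 ± 1.25 and Dppa3 at 2.38 ± 1.18. The ranges of Dppa2 and Dppa4 overlapped in that order, and no other neighbours did. In DMSO iPSC the order was Dppa5a at 2323 TPM, Tdgf1 at 646.7, Utf1 at 542, L1td1 at 368, Upp1 at 333, Dppa2 at 161.5, Dppa4 at 129, Pramel6 at 56.5, Dppa3 at 23.9 and Pramel7 at 16.7, and only L1td1 and Upp1 overlapped. In CD iPSC it was Dppa5a at 3419 TPM, Tdgf1 at 956, Upp1 at 841, Utf1 at 257, Dppa4 at 73.4, L1td1 at 42.8, Dppa2 at 33.8, Dppa3 at 25.1, Pramel6 at 0.992 and Pramel7 at 0.786. There L1td1 overlapped with Dppa2, and Pramel6 with Pramel7. All 10 genes passed the test against MEF in each pluripotent group (limma on log2(TPM + 1)), but they entered it only through the groups where they are high, and 69.4%, 68.4% and 68.9% of all genes passed in CD iPSC, DMSO iPSC and R1. The Pramel7 call for CD iPSC (0.79, adjusted p = 0.026) was lost without the first CD iPSC library (0.44, adjusted p = 0.109), without either MEF library (adjusted p = 0.081 for each) and with no filter (0.054). The fibroblast list of 16 genes, Col1a1 among them, summed to 22510 and 24130 TPM in MEF and to between 314.6 and 535.2 in the 6 pluripotent libraries.

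**Figure D1:**
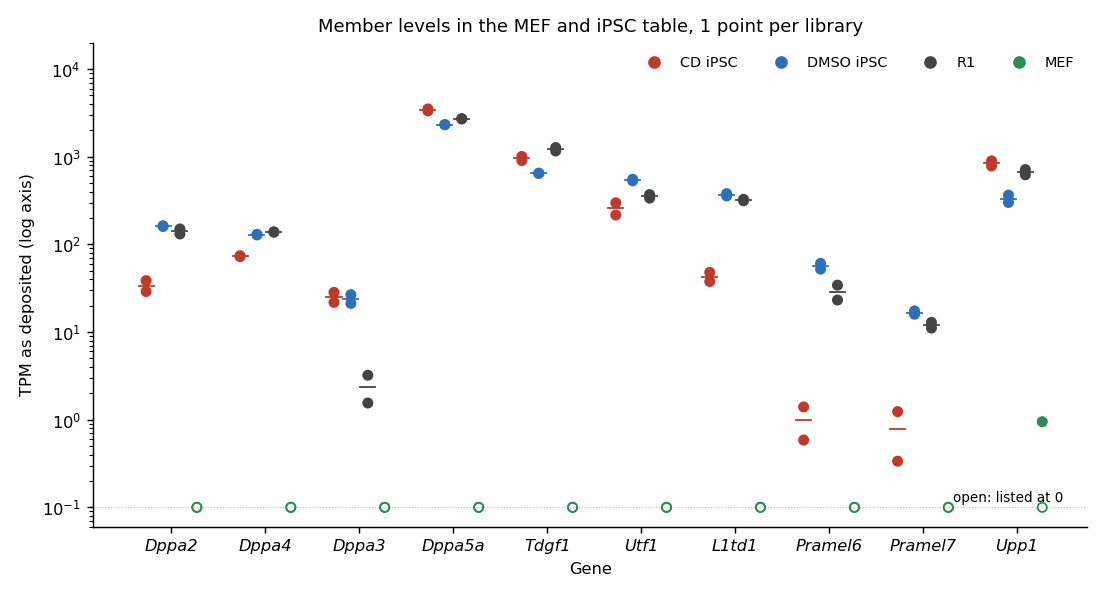
TPM of the 10 members on a log axis, with 1 point per library and a bar at the mean of 2. Pramel6, Pramel7 and L1td1 sat far lower in CD iPSC (red) than in DMSO iPSC (blue) and R1 (black), Dppa3 was low in R1, and open circles mark MEF values listed at 0.

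CD iPSC and DMSO iPSC differed in 9 of the 10 members. Pramel6, Pramel7, L1td1, Dppa2, Utf1 and Dppa4 were lower in CD iPSC, while Upp1, Tdgf1 and Dppa5a were higher. In bulk RNA, fewer cells expressing a gene and less RNA per cell cannot be told apart. Over all 17414 genes tested, 38.6% passed, 17.9% higher and 20.7% lower. The median change over the members was -1.02 against -0.03 over all genes, on the log2 scale. Changes are differences of log2(TPM + 1) after each library was rescaled to its median gene, given with SE and with limma p-values adjusted by Benjamini-Hochberg over all genes.

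Pramel6 stood at 1.40 and 0.586 TPM in CD iPSC, 60.7 and 52.2 in DMSO iPSC and 23.2 and 34.3 in R1. Both CD libraries lay far below all others, and both DMSO libraries lay above both R1 libraries. The fall of -4.96 ± 0.25 (adjusted p = 9.2e-05) ranked 1 from the lowest among all 17414 genes, and mean TPM differed 56.9-fold. Its neighbour Pramel7 had 1.24 and 0.336 TPM in CD iPSC, 16.0 and 17.4 in DMSO iPSC and 12.9 and 11.1 in R1. It fell by 3.44 ± 0.25 on the log2 scale (adjusted p = 0.00022), rank 26 from the lowest, with a 21.2-fold difference in mean TPM. The ranges of the pair overlapped in CD iPSC, whereas in DMSO iPSC and R1 Pramel6 was above Pramel7.

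L1td1 had 48.0 and 37.7 TPM in CD iPSC against 379.7 and 357 in DMSO iPSC and 327 and 314 in R1. The group ranges were far apart between CD iPSC and the others, and the fall was -3.15 ± 0.11 (adjusted p = 5.2e-05), an 8.6-fold difference in mean TPM. In CD iPSC L1td1 was at 13.4% of its mean in R1.

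Dppa2 and Dppa4 both fell, by unequal amounts. Dppa2 had 29.0 and 38.6 TPM in CD iPSC, 160.0 and 163.0 in DMSO iPSC and 149.9 and 131.6 in R1, a change of -2.30 ± 0.17 (adjusted p = 0.00024). Dppa4 had 74.2 and 72.5 TPM in CD iPSC, 130.3 and 128.2 in DMSO iPSC and 138.7 and 137.9 in R1, a change of -0.88 ± 0.10 (adjusted p = 0.00079). Dppa2 was above Dppa4 in DMSO iPSC and below it in CD iPSC in every library, on the per-length TPM scale. The 95% intervals of the changes were -2.71 to -1.90 for Dppa2 and -1.10 to -0.65 for Dppa4, and the difference between these genes was not tested.

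Utf1 stood at 298.0 and 216 TPM in CD iPSC, 553 and 530.5 in DMSO iPSC and 338 and 369.6 in R1. It was lower in CD iPSC than in DMSO iPSC by -1.16 ± 0.13 (adjusted p = 0.00086). Against R1 the CD value did not pass (-0.35 ± 0.13, adjusted p = 0.096), although both CD libraries were below both R1 libraries. It rested on the CD library used: without the first the change was -0.53 (adjusted p = 0.017), and without the second -0.17 (adjusted p = 0.26). DMSO iPSC had more Utf1 than R1 (0.81 ± 0.13, adjusted p = 0.0094), a call lost when any 1 of the 4 libraries was left out (adjusted p 0.054 to 0.069).

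The 3 members that were higher in CD iPSC were those with the highest mean TPM in R1. Upp1 had 896 and 785 TPM in CD iPSC, 364 and 301 in DMSO iPSC and 622 and 713 in R1. It was 1.27 ± 0.27 higher in CD than in DMSO iPSC on the log2 scale (adjusted p = 0.010). The change was the same with a pseudocount of 0.1 (1.27), but the call was lost (adjusted p = 0.327). The SE of Upp1, 0.27 in every comparison of this table, pools the MEF libraries. Upp1 was barely detected there, where the pseudocount matters most. The call was also lost without the second DMSO iPSC library, where the change was 1.13. Tdgf1 had 905 and 1007 TPM in CD iPSC, 649 and 644 in DMSO iPSC and 1272 and 1162 in R1. CD iPSC exceeded DMSO iPSC by 0.49 ± 0.11 (adjusted p = 0.013), a call lost without the first or the second DMSO iPSC library (0.067 and 0.072). Dppa5a had 3508 and 3330 TPM in CD iPSC, 2327 and 2319 in DMSO iPSC and 2706 and 2709 in R1. It was 0.49 ± 0.08 higher in CD than in DMSO iPSC (adjusted p = 0.0037), with no overlap between groups.

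Dppa3 did not pass between the iPSC groups. Its levels were 28.3 and 21.8 TPM in CD iPSC, 26.7 and 21.2 in DMSO iPSC and 3.22 and 1.55 in R1. The difference between the iPSC groups was -0.0046 ± 0.27 (adjusted p = 1), with a 95% interval from -0.63 to 0.62. Both iPSC groups were higher than R1 by 3.07 ± 0.27 (adjusted p = 0.00094 for CD and 0.0013 for DMSO), about 10.5-fold and 10.1-fold in mean TPM, rank 16 and rank 21 from the highest of 17414 genes. The 2 comparisons share the R1 libraries. Nanog, next to Dppa3 on the chromosome and a core pluripotency factor, went the other way against R1, with -1.21 ± 0.13 in CD iPSC (adjusted p = 0.0018) and -0.38 ± 0.13 in DMSO iPSC (adjusted p = 0.089).

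Set against R1, 7 members passed in CD iPSC, 2 higher and 5 lower, where 22.8% of all genes passed. Dppa2, Dppa4, L1td1, Pramel6 and Pramel7 were lower in CD iPSC than in both other groups. Against R1 the CD changes were -3.80 ± 0.25 for Pramel6, -2.81 ± 0.25 for Pramel7, -2.76 ± 0.11 for L1td1, -1.91 ± 0.17 for Dppa2 and -0.78 ± 0.10 for Dppa4 (adjusted p 0.00011 to 0.0028). Dppa5a was higher (0.46 ± 0.08, adjusted p = 0.0095), a call lost without either R1 library (0.059 and 0.077). Tdgf1 (-0.22 ± 0.11, adjusted p = 0.196) passed only in the values as deposited (-0.35, adjusted p = 0.038), and Upp1 (0.46 ± 0.27, adjusted p = 0.28) did not pass in either.

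Between DMSO iPSC and R1, 4 members passed the test, where 16.5% of all genes passed. Beside Dppa3 and Utf1, Pramel6 was higher (1.16 ± 0.25, adjusted p = 0.024) and Tdgf1 lower (-0.72 ± 0.11, adjusted p = 0.0087). The Pramel6 call was lost without any 1 of the 4 libraries (adjusted p 0.052 to 0.133), with a pseudocount of 0.1 (0.091) and with no filter (0.051), and the Tdgf1 call without either DMSO iPSC library (0.059 and 0.064) or the first R1 library (0.070). Upp1 did not pass (-0.82 ± 0.27, adjusted p = 0.088), though it did as deposited (0.048). The 95% intervals for the other members were -0.02 to 0.80 for Dppa2, -0.13 to 0.32 for Dppa4, -0.22 to 0.16 for Dppa5a, 0.12 to 0.66 for L1td1 and 0.03 to 1.23 for Pramel7.

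**Figure D2:**
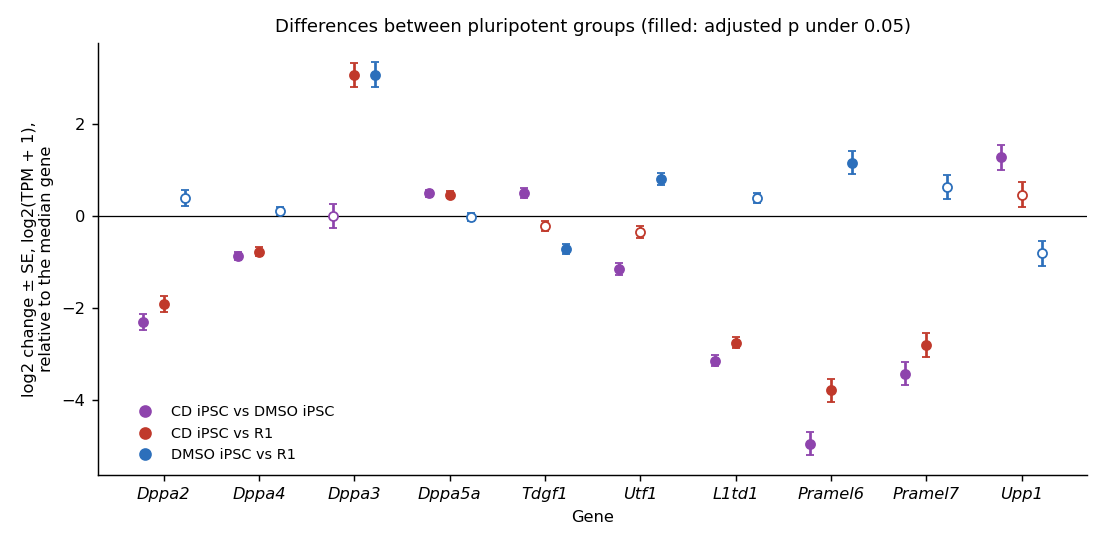
Difference in log2(TPM + 1) relative to the median gene, with SE, for 3 comparisons among pluripotent groups, where filled points passed an adjusted p of 0.05. The CD iPSC comparisons (purple, red) run down to -4.96 for Pramel6, while DMSO iPSC against R1 (blue) stays between -0.82 and 1.16 except for Dppa3 at 3.07.

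Other pluripotency genes were described from lists chosen with earlier results of these data known. Among 25 core and naive factors, 22 were lower in CD iPSC than in DMSO iPSC and none was higher, with a median change of -1.19. Over all genes 20.7% were lower and 17.9% higher. Pou5f1, the gene of OCT4, did not pass, at 1532 and 1138 TPM in CD iPSC and 1275 and 1446 in DMSO iPSC (-0.11 ± 0.13, adjusted p = 0.56). Nanog fell (-0.82 ± 0.13, adjusted p = 0.0032), as did Sox2 (-0.48 ± 0.10, adjusted p = 0.010) and Zfp42, the naive marker Rex1 (-1.98 ± 0.09, adjusted p = 8.0e-05). Of 12 genes of the 2-cell-like list, which mark a rare totipotent-like state, all 12 were lower in CD iPSC, with a median of -1.86. Zscan4c, for example, had 10.5 and 11.7 TPM in CD iPSC against 71.6 and 73.6 in DMSO iPSC and 38.5 and 37.5 in R1.

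Around Tdgf1, 5 of 14 tested genes of Nodal signalling fell in CD iPSC against DMSO iPSC, where 20.7% of all genes fell, and none rose. They were the ligand Nodal (-1.39 ± 0.13), the ligand Gdf3 (-1.27 ± 0.17), the inhibitors Lefty1 (-1.53 ± 0.18) and Lefty2 (-2.14 ± 0.15) and the convertase Pcsk6 (-0.94 ± 0.11). Tdgf1 itself was higher there. Smad4, the shared signal transducer, did not pass (0.28 ± 0.13, adjusted p = 0.139).

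Of 13 pyrimidine salvage and synthesis genes set beside Upp1, 4 were higher and 2 lower in CD iPSC, with a median of 0.32. In this comparison 38.6% of all genes passed. Counts of this size, here and in the germ cell list below, do not set these genes apart. Cad, which starts pyrimidine synthesis, rose (0.37 ± 0.09, adjusted p = 0.015), and the uridine kinase gene Uck2 fell (-0.84 ± 0.10, adjusted p = 0.00094). Among the members' relatives, 10 of 22 could be tested, and 1 was higher and 4 lower, where 17.9% of all genes were higher and 20.7% lower. Khdc3, an oocyte KH-domain gene, had 88.7 and 86.9 TPM in CD iPSC and 52.3 and 45.8 in DMSO iPSC. The lower ones were the PRAME relatives Pramel3, Pramef8, Pramef17 and Pramef25, named after their values were seen. The PRAME relatives Pramel1 and Pramef12 were tested too and did not pass. Of 14 germ cell genes, 4 were higher and 2 lower, and the meiotic entry gene Stra8 was the most changed, at 190.9 and 171 TPM in CD iPSC against 47.7 and 44.9 in DMSO iPSC (1.88 ± 0.10, adjusted p = 1e-04).

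Markers of other cells moved between these groups too. Over all genes, 17.9% were higher and 20.7% lower in CD iPSC than in DMSO iPSC. Among 16 fibroblast genes, 1 was higher and 10 lower in CD iPSC than in DMSO iPSC, with sums of 471 and 409 TPM against 535.2 and 523, and Lum was at 0 in 3 of these 4 libraries. Among 10 macrophage genes, 6 were lower and none higher, with sums of 56.8 and 59.8 TPM against 97.4 and 110.7, and Adgre1, Tyrobp and C1qa were at 0 in the second CD iPSC library. R1 summed to 42.7 and 46.9 TPM for the latter list. Of 6 primed epiblast genes tested, 2 (Dnmt3b and Zic2) were lower in CD iPSC and none was higher. The part of such cells in the members' differences was not tested. Mitochondrial transcripts made up 8.87% and 14.0% of TPM in CD iPSC and 17.4% and 16.2% in DMSO iPSC.

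Some members have near-identical copies in the genome, so part of their reads could be assigned to a copy. Tdgf1-ps1, 98.8% identical over 26.5% of the transcript, was listed at 232 and 211 TPM in CD iPSC, 129 and 105 in DMSO iPSC and 356 and 294 in R1, in the same order as Tdgf1. Dppa5b, 96.3% identical over 48.3% of Dppa5a, was listed at 188 and 187 TPM in CD iPSC and at 182 and 201 in R1, but at 0 and 125.5 in the 2 DMSO iPSC libraries. All 10 genes counted as copies of Dppa5a summed to 616 and 588 TPM in CD iPSC against 267 and 370.1 in DMSO iPSC. One of them, Pigp, is protein coding and was listed at 38.56 and 45.33 TPM in MEF, where Dppa5a was not detected. Not all of this sum can therefore be reads of Dppa5a. The levels of Dppa5a and Tdgf1 are uncertain to that extent. The copies of Dppa2 (5 genes) and Dppa4 (2 genes) summed to at most 23.5 and 17.5 TPM in any library, and those of Dppa3 and Pramel7 to at most 0.267.

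In the 12 libraries of intermediates the late members were mostly silent. Dppa2, Dppa4, Pramel6 and Pramel7 were listed at 0 in all 12, Dppa3 reached at most 0.137 TPM and Dppa5a at most 0.347. Tdgf1, Utf1, L1td1 and Upp1 were the 4 members that reached 1 TPM anywhere. The tables were normalized separately, so levels are compared only within a table.

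With CD, Tdgf1, L1td1 and Upp1 rose, 3 of 3 members tested. Of all 13006 genes tested, 61.7% passed, and 30.5% of all genes tested were higher. Upp1 had 3.86 and 4.43 TPM with DMSO and 19.6 and 19.2 with CD, a change of 1.80 ± 0.07 (adjusted p = 4.4e-05), rank 70 from the highest. L1td1 had 1.01 and 1.86 TPM with DMSO and 4.18 and 4.35 with CD (0.99 ± 0.17, adjusted p = 0.0047). Tdgf1 had 0.210 and 0.215 TPM with DMSO and 1.98 and 1.79 with CD (1.16 ± 0.10, adjusted p = 0.00042, or 2.49 with a pseudocount of 0.1). The groups did not overlap for any of these genes, but the share of all genes without overlap was not counted. Tdgf1 was tested only because it exceeded 1 TPM with CD, so its call is a description. Utf1, at 0.308 and 0.286 TPM with DMSO and 0.560 and 0.818 with CD, was below the filter and not tested.

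With Rxra overexpression, in other libraries, Tdgf1, Utf1, L1td1 and Upp1 rose. Rxra itself stood at 8.70 and 9.57 TPM in controls and 21.7 and 21.7 with overexpression. Upp1 had 3.83 and 4.18 TPM in controls and 31.0 and 25.5 with Rxra (1.88 ± 0.10, adjusted p = 3.7e-05). L1td1 went from 0.496 and 0.502 TPM to 4.11 and 4.28 (1.36 ± 0.09), Tdgf1 from 0.0620 and 0 to 2.27 and 2.02 (1.35 ± 0.10) and Utf1 from 0.047 and 0 to 1.54 and 1.65 (1.11 ± 0.09), each with an adjusted p of at most 0.00018. The sizes for these low genes depend on the pseudocount, and with 0.1 in place of 1 they were 2.16 for L1td1, 3.68 for Tdgf1 and 3.37 for Utf1. All 4 members tested were higher, where 70.5% of all genes passed and 35.1% were higher. L1td1, Tdgf1 and Utf1 entered the test through the overexpressing libraries only, so that leaving out either of these removed them from it and left Upp1.

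With the hairpin against Exosc3, L1td1 and Upp1 fell. Exosc3 was at 8.86 and 10.2 TPM with the control hairpin and at 5.97 and 4.01 with shE3. L1td1 had 1.27 and 1.73 TPM with shCTR and 0.111 and 0 with shE3 (-1.22 ± 0.19, adjusted p = 0.0092), having entered the test through shCTR only. With a pseudocount of 0.1 the L1td1 change was -3.42 (adjusted p = 0.018). Upp1 fell from 19.2 and 19.0 TPM to 9.38 and 13.3 (-0.68 ± 0.17, adjusted p = 0.037), and this call was lost without the first or the second shCTR library (0.119 and 0.065) and with no filter (0.16). Without the first shE3 library the change was -0.43 (adjusted p = 0.044). Both members tested were lower, where 28.1% of all genes passed and 13.9% were lower. Tdgf1, at 0.861 and 1.36 TPM with shCTR and 0.109 and 0.343 with shE3, and Utf1, at most 0.237 TPM, were not tested.

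**Figure D3:**
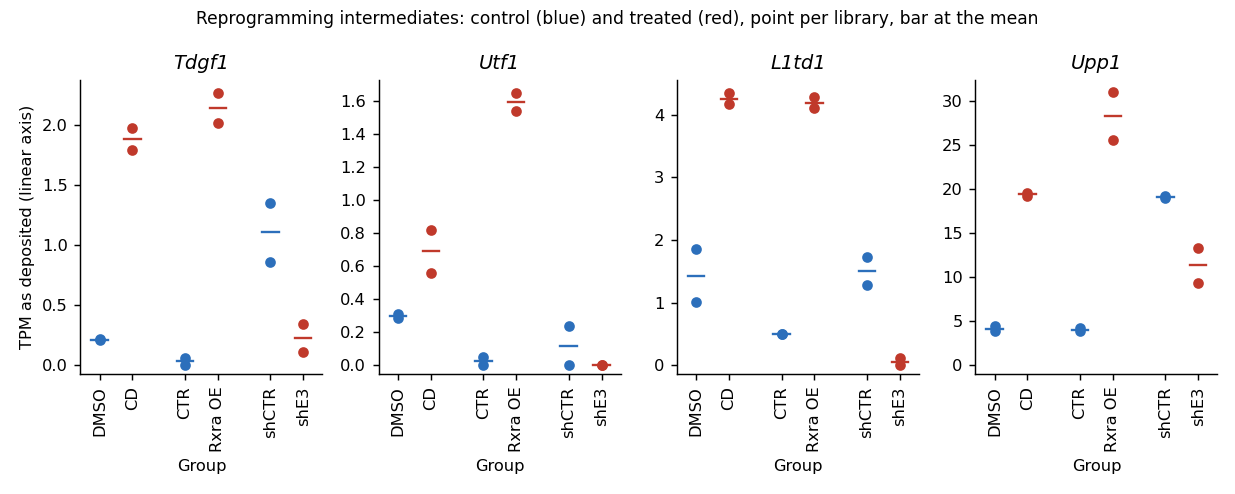
TPM on a linear axis in the 3 tables of intermediates, with control libraries in blue, treated ones in red and a bar at the mean of 2. All 4 genes sat higher with CD and with Rxra overexpression than in their controls, and Tdgf1, L1td1 and Upp1 sat lower with shE3.

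Genes of other lists changed in the same comparisons. Over all genes, 61.7% passed with CD, 70.5% with Rxra and 28.1% with shE3. Of the core and naive pluripotency list, 12 genes rose and 1 fell of 14 tested with CD, 10 rose and 1 fell of 11 with Rxra, and 1 rose and 10 fell of 14 with shE3. Lin28a changed by 1.65 ± 0.06, 2.00 ± 0.09 and -2.17 ± 0.11, while Sox2 moved against the list with CD (-0.60 ± 0.10) and shE3 (0.76 ± 0.20). The XEN-like list, markers of the extraembryonic endoderm-like state of chemical reprogramming, summed to 1065 and 1122 TPM with DMSO and 2037 and 2066 with CD, where 9 of its 11 tested genes rose and 1 fell. Its sums were 1037 and 1183 in CTR and 2184 and 2095 with Rxra, and 2588 and 2890 in shCTR and 2034 and 2031 in shE3. Of 12 genes tested, 9 rose and 2 fell with Rxra, and 11 fell with shE3. No XEN-like marker was at 0 in these libraries except Hnf4a in the first shE3 library. The XEN-like sums do not measure that state alone. Sparc averaged 815.8 TPM in CTR and 749.5 with CD, values that were normalized separately and are not compared. By limma it changed by 0.09 ± 0.03 with CD (adjusted p = 0.037) and by -0.58 ± 0.06 with Rxra (adjusted p = 0.00045). In the MEF libraries, from another table, the same list summed to 5067 and 5054 TPM, with Sparc at 4478 on average. The fibroblast list summed to 2041 and 2154 TPM with DMSO and 1415 and 1476 with CD, to 1866 and 2098 in CTR and 863 and 851 with Rxra, and to 3571 and 3948 in shCTR and 3852 and 3789 in shE3, with no marker at 0. Of its 16 genes, 2 rose and 14 fell with CD, 14 fell with Rxra, and 8 rose and 2 fell with shE3. The macrophage list summed to at most 15.2 TPM in the CD and Rxra tables, and to 152 and 182 in shCTR and 372 and 369.6 in shE3. Only 2 of its 9 genes tested rose with shE3, and none fell. The trophoblast list, of which 3 genes rose and 1 fell of 5 tested with CD, 4 rose and 1 fell of 6 with Rxra and 1 fell of 5 with shE3, summed to 13.1 and 13.3 TPM with DMSO and 37.3 and 39.1 with CD. Its sums were 8.79 and 10.4 in CTR and 47.4 and 47.6 with Rxra, and 18.2 and 20.0 in shCTR and 12.1 and 13.8 in shE3, with Gcm1 at 0 in all 12 libraries. Of 4 primed epiblast genes tested, 2 rose with CD, 4 rose with Rxra and 1 fell with shE3. Some genes of these lists, like some members, entered the test through the higher group only. Dnmt3b, for example, was at 0.75 and 0.80 TPM in CTR. Such calls are descriptions, and the list counts above include them. Mitochondrial transcripts made up 52.9% to 57.1% of TPM in the CD table and 50.9% to 62.0% in the Rxra table, lower in the treated libraries of each, and 15.5% and 14.4% in shCTR against 11.9% and 11.8% in shE3. The part of these shifts in the members' changes was not tested.

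Between intermediates and iPSC the members did not keep one direction. L1td1 was higher with CD in the intermediates and lower in CD iPSC, whereas Tdgf1 and Upp1 were higher with CD in both. Utf1 was not tested with CD in the intermediates. It was higher with CD before actinomycin D (1.29 ± 0.20), a test it entered through the CD libraries only, and lower in CD iPSC (-1.16 ± 0.13). These contrasts come from tables that share no library, and the difference between them was not tested.

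The actinomycin D table gave CPM, reads scaled to the library size, which are not divided by gene length. Its 12 libraries held 15382821 to 24186485 reads. Dppa2, Dppa3, Dppa4 and Dppa5a had 21, 10, 5 and 6 reads over all 12 libraries, and Pramel6 and Pramel7 had 0, so only Tdgf1, Utf1, L1td1 and Upp1 were tested. In single libraries 3 reads correspond to between 0.124 and 0.195 CPM.

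Before actinomycin D, all 4 were higher with CD than with DMSO, where 16.0% of 17064 genes passed and 6.77% were higher. Upp1 had 59.4 and 44.7 CPM with CD and 22.5 and 19.1 with DMSO (1.11 ± 0.18, adjusted p = 0.0050). Utf1 had 3.06 and 1.99 CPM with CD, from 74 and 37 reads, and 0.363 and 0.126 with DMSO, from 7 and 2 reads (1.29 ± 0.20, adjusted p = 0.0044), and it entered the test through these CD libraries only. With a pseudocount of 0.1 the Utf1 change was 2.79, and edgeR on the reads gave 3.11 (adjusted p = 0.011). Tdgf1 had 4.71 and 8.73 CPM with CD and 2.23 and 2.21 with DMSO (1.05 ± 0.24, adjusted p = 0.021). L1td1 had 29.4 and 14.3 CPM with CD and 9.55 and 5.17 with DMSO (1.25 ± 0.35, adjusted p = 0.039). The groups did not overlap, though the share of all genes without overlap was not counted here either. The CD libraries differed widely from each other in Tdgf1 and L1td1, in opposite directions. The L1td1 call was lost without the first CD library (0.77, adjusted p = 0.27) or the second DMSO library (0.94, adjusted p = 0.29), and the Tdgf1 call without the latter (adjusted p = 0.12). Without the second CD library the Tdgf1 change was 0.67 (adjusted p = 0.042). With no filter the Tdgf1 and L1td1 calls were lost (adjusted p = 0.061 and 0.098). With scaling to the ERCC spike-ins the L1td1 and Upp1 calls were lost (adjusted p = 0.105 and 0.057). The XEN-like list, whose sum does not measure the XEN-like state alone, was at 11620 and 13500 CPM with CD and 8896 and 9560 with DMSO. The fibroblast list was at 4827 and 5409 CPM with CD against 7316 and 7052 with DMSO. The macrophage list was at 153 and 248 CPM against 353 and 496, none of these 3 lists having a marker at 0, and the trophoblast list at 267 and 81.6 against 57.9 and 35.9, with Tpbpa at 0 in all 4. Their part in the result was not tested.

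After 8 h of actinomycin D, L1td1 fell in both arms, Tdgf1 fell with DMSO, and Utf1 and Upp1 fell with CD, while the other 3 changes did not pass. L1td1 went to 0.960 and 1.95 CPM with DMSO (-1.45 ± 0.35, adjusted p = 0.016) and to 5.50 and 3.55 with CD (-1.64 ± 0.35, adjusted p = 0.0046). Upp1 went with CD to 17.3 and 14.4 CPM (-1.28 ± 0.18, adjusted p = 0.0017, or -1.98 with ERCC scaling). With DMSO it stood at 9.12 and 14.1 CPM (-0.42 ± 0.18, adjusted p = 0.092), and passed there only as deposited (-0.81, adjusted p = 0.021). Utf1 went with CD to 0.0591 and 0.291 CPM, 1 and 5 reads (-1.34 ± 0.20, adjusted p = 0.0019, or -3.02 with a pseudocount of 0.1). It entered the test only through the CD 0 h libraries, the high side of this change, so the call is a description. With DMSO Utf1 began at 7 and 2 reads and did not pass (-0.22 ± 0.20, adjusted p = 0.40). Tdgf1 went with DMSO to 0.600 and 0.650 CPM (-0.76 ± 0.24, adjusted p = 0.037), and edgeR gave -1.43 (adjusted p = 0.024). With CD it stood at 3.72 and 3.95 CPM and did not pass (-0.31 ± 0.24, adjusted p = 0.29), but it did with ERCC scaling (-0.91, adjusted p = 0.012) and without the first CD 0 h library (-0.69, adjusted p = 0.0498). Without the second CD 0 h library its change was 0.06 (adjusted p = 0.83).

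These changes are relative to the median gene, which itself fell by 0.33 with DMSO and 0.34 with CD in the deposited values. Of the members tested, 2 of 4 fell with DMSO, where 30.4% of all genes passed and 13.4% were lower. With CD 3 of 4 fell, where 54.1% passed and 29.4% were lower. The CD count includes Utf1, which entered the test through the CD 0 h libraries only. The DMSO calls were lost in part or in whole without any 1 of the 4 libraries: Tdgf1 without each (adjusted p 0.088 to 0.153) and also with no filter (0.1025), and L1td1 without the first DMSO 8 h (0.128) or the first DMSO 0 h library (0.126).

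The time course had different shapes. Tdgf1 was not lower at 4 h than at 0 h in deposited CPM, with 112% of its starting mean with DMSO and 114% with CD, and then 28.2% and 57.1% at 8 h. Utf1 with CD was at 10.3% by 4 h, from 5 and 5 reads, and at 6.92% at 8 h. With DMSO, where it began at 7 and 2 reads, it was at 75.5% and then 13.3%. L1td1 was at 41.1% (DMSO) and 33.7% (CD) at 4 h and at 19.8% and 20.7% at 8 h. Upp1 was at 98.6% and 64.9% at 4 h and at 55.8% and 30.4% at 8 h. Scaled to ERCC, the 8 h values of Upp1 were 46.0% and 23.0%, and those of Tdgf1 23.3% and 47.0%, in the same order between arms.

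**Figure D4:**
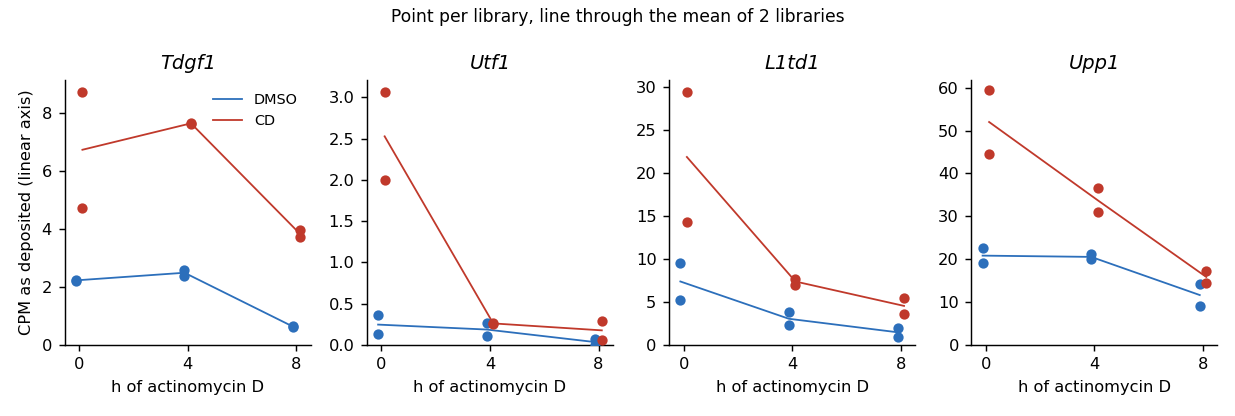
CPM on a linear axis at 0, 4 and 8 h of actinomycin D with DMSO (blue) or CD (red), with points for libraries and lines through the means of 2. Utf1 and L1td1 were already low at 4 h with CD, Tdgf1 was not, and the 2 CD libraries at 0 h lay far apart for Tdgf1 and L1td1.

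The difference between arms in the 8 h change was not past the test for any of the 4 members, where 0.00586% of all genes (1 gene) passed. By limma the differences, CD minus DMSO, were -1.11 ± 0.28 for Utf1 (adjusted p = 0.33), -0.87 ± 0.25 for Upp1 (adjusted p = 0.33), -0.19 ± 0.50 for L1td1 (adjusted p = 0.88) and 0.45 ± 0.34 for Tdgf1 (adjusted p = 0.56). Before adjustment 2 of the 4, Utf1 and Upp1, had p under 0.05 (0.0022 and 0.0052). With DMSO, Utf1 began at 0.363 and 0.126 CPM and had little room to fall on the log2(CPM + 1) scale, which bounds its difference between arms. Its p before adjustment therefore does not compare decay between the arms. edgeR and DESeq2 on the recovered reads also called 0 of the 4. The 95% interval for Tdgf1 ran from -0.30 to 1.20, so differences within it were not resolved.

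Across the 10 group means of the TPM tables, each member had close companions, as a description over groups in which most intermediates and MEF are near 0. Dppa2 was most like Nr0b1, the naive pluripotency receptor gene Dax1 (Pearson r = 0.9997 of log2(TPM + 1)), and L1td1 most like the zinc finger gene Zfp296 (0.9905). Pramel6 and Pramel7 shared Gm12800 as the most similar gene (0.9999 and 0.9985). Upp1 was most like Lrrc2 (0.9958), which lies 5386 bases from Tdgf1 on chromosome 9. Dppa4 was most like Zfp600 (0.9999), Dppa5a like 1110002J07Rik (0.9998), Tdgf1 like Gm49697 (0.9983), Utf1 like Ppp1r1a (0.9979) and Dppa3 like Gm7029 (0.9844). The groups come from 4 tables normalized separately.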

How the data were processed

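RNA-seq was measured in 32 bulk libraries, 2 per group. Per the submitters' processing notes, fastp 0.20.1, HISAT2 2.1.0, StringTie 2.0 and the mm10 build were named, without their role for each table. The authors deposited 4 tables of TPM, whose depth is unknown because TPM keeps none, and 1 signal table for actinomycin D. The deposited signal values summed to nearly the same total in every library, and 99.9965% to 100% of them were whole multiples of 1 read within 0.01, so they are called CPM and gave back reads of 15382821 to 24186485 per library.

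Genes were named by GENCODE M21. Within each table, each library was divided by a size factor, the median over genes of its ratio to the geometric mean of all libraries. Genes at 1 or more in at least 2 libraries were tested with limma 3.58.1 (R 4.3.3) on log2(value + 1) with all groups in 1 fit, 2-sided, and p-values were adjusted by Benjamini-Hochberg over all genes with a threshold of 0.05. Fold changes on this scale understate the change of low genes. In the values as deposited the median gene shifted by 0.18 (CD against DMSO), 0.62 (Rxra), 0.19 (CD at 0 h), -0.13 (DMSO iPSC against R1) and 0.11 (R1 against MEF) on the log2 scale, and the changes are relative to it. On the recovered reads, edgeR 4.0.16 called 2961 genes for CD at 0 h, 4684 for DMSO at 8 h and 9274 for CD at 8 h, and DESeq2 1.42.0 was a further alternative. Alternatives were no rescaling, a pseudocount of 0.1, no filter, a filter at 5, ERCC scaling, a replicate block and leaving out each library. The script was tested on simulated data. Copies were found with blastn 2.17.0 at 90% identity or more. Short matches were left out, and the shortest one counted covered 25.9% of its transcript.

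Members and lists were chosen with earlier results of these data known. Named are all members, up to 3 genes of each list with the highest mean TPM in R1, Pou5f1, Nanog and Sox2, and the gene most like each member. The Nodal genes, the PRAME relatives, Lin28a, Pigp and the markers listed at 0 (Lum, Adgre1, Tyrobp, C1qa, Hnf4a, Tpbpa and Gcm1) were added after their values were seen.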

Additional observations from a re-analysis of the deposited data

How the results depend on the processing

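Of the members' changes under the alternatives, 751 kept direction and side of the threshold, 41 lost the call, 6 gained it and 12 changed sign. Tdgf1 with CD at 8 h, 1 of the changes that reversed, passed with the negative sign in other settings, for example with ERCC scaling (-0.91). None of the 12 sign changes passed in the main fit or in the setting that reversed it. These were Dppa3 between the iPSC groups (0.0606 as deposited; leaving out each library gave -0.17 to 0.15), Dppa4 in DMSO iPSC against R1 (-0.10 as deposited), Tdgf1 with CD at 8 h (-0.69 to 0.0602 leaving out each library) and the L1td1 difference between arms (0.0473 with a pseudocount of 0.1, 0.12 by edgeR, 0.0311 by DESeq2 and -0.67 to 0.29 leaving out each library); the cause was not tested. A filter at 5 left Upp1 alone in the intermediates, with 1 member passing for CD, 1 for Rxra and 1 for shE3. It removed the other members, the highest of which, L1td1, reached at most 4.35 TPM there. With no filter, 1 member passed for shE3, 2 for CD at 0 h and 1 for DMSO at 8 h, and with ERCC scaling 2 passed for CD at 0 h; the cause was not tested. Leaving out each library gave 2 to 3 members for CD, 1 to 4 for Rxra, 0 to 2 for shE3, 2 to 4 for CD at 0 h, 0 to 1 for DMSO at 8 h, 2 to 3 for CD at 8 h, 7 to 9 for CD iPSC against DMSO iPSC, 6 to 8 for CD iPSC and 1 to 2 for DMSO iPSC against R1, 9 to 10, 10 and 10 for CD iPSC, DMSO iPSC and R1 against MEF, and 0 for the difference between arms. A lone library was then assumed to vary like the other groups. Libraries of different groups share only a replicate number. Their deviations correlated from -0.725 to 0.552 in the actinomycin D table and from -0.135 to 0.076 elsewhere. With the replicate block 3 members passed for CD at 0 h, where L1td1 was lost (adjusted p = 0.051 by limma), and the members' counts in the other comparisons did not change. A crossed replicate block, added after seeing the data, gave 3 members of 7810 genes called for CD and 4 of 9711 for Rxra. Counts over all genes moved more: 1139 with no filter, 288 with ERCC scaling, 1954 with the replicate block and 4042 by DESeq2 against 2736 for CD at 0 h, 2747 and 3027 with no filter and ERCC scaling against 5182 for DMSO at 8 h, 2384 with no filter against 4410 for shE3, and 51 by DESeq2 against 1 for the difference between arms. Few reads limit Utf1 in the actinomycin D table, with 144 over 12 libraries. The 6 silent members had at most 21 reads each there, and the part of depth in this was not tested.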
